A study of Mus musculus with 8 samples.

Results

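The 10 neutrophil granule genes described here were the primary (azurophil) granule genes Mpo, Elane, Prtn3 and Ctsg, the secondary (specific) granule genes Ngp, Ltf, Camp and Lcn2, and Ms4a3 and Fcnb, which granulocyte progenitors switch on between the onset of the first and of the second set. They were chosen by name from the 32285 genes counted, and all 10 were matched by symbol and gene identifier. The data were single-cell transcriptomes of lineage-negative, c-Kit+ bone marrow cells (HSPC) of 8 wild-type mice, with 1 mouse in each 10x library and no transgene or treatment in any group. Each of 4 ages had 1 male and 1 female. Young mice were 14, middle-aged 50 and very old 95 weeks old, and the old male and female were 78 and 79 weeks old. The labels give the very old libraries another series number than the other libraries, so that library series and very old age cannot be told apart. With 2 mice at each age the spread between animals of 1 age included their sex.

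A unique molecular identifier (UMI) counts 1 captured transcript whatever its length, so levels of different genes are given side by side as CPM, the UMIs of the gene per 1000000 UMIs of the same cells. The libraries held 83062003 to 150135029 UMIs, and 6459 to 8689 cells per library passed the minimum of 200 genes, 59136 in all. Any pair of libraries shared 6 to 27 cell barcodes. The cells formed 26 clusters, made without granule cargo genes. A total of 5391 cells (9.12%, 6.36 to 12.4% per mouse) were called granulocyte progenitor-like from Cebpe, Gfi1, Csf3r, Hk3, Trem3, S100a8 and other markers that are not granule cargo.

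Neutrophil granules are filled in the order in which their proteins are made. Primary granules form in promyelocytes and hold myeloperoxidase and serine proteases, which are made as inactive precursors. Secondary granules form later, in myelocytes and metamyelocytes, and hold lactoferrin, cathelicidin and lipocalin, and tertiary granules with gelatinase follow. PU.1, C/EBP alpha and MYB act at the first stage, and C/EBP epsilon and GFI1 at the second.

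The promoters of 5 members are shown because they belong to the genes whose order and age pattern are described below. Sequences are RefSeq's on GRCm38.p6, from 250 bases before to 50 bases after the annotated start, on the strand of the gene. Capitals mark matches to letters of known binding sites, on either strand: GAGGAAG (PU.1), AACGGC (MYB), TTGCNNAA (C/EBP) and TGTGGT (RUNX). No matches overlapped in these promoters. These letters were chosen after the promoters had been read. Prtn3 and Elane are neighbours, with 3072 bases between the end of Prtn3 (10:79874476-79883174 in GENCODE vM21) and the start of Elane (10:79886247-79888215). For Prtn3 and Lcn2 the RefSeq start differs from that of GENCODE, and the promoter window lies wholly inside the GENCODE gene. Camp (9:109847379-109849617), Ngp (9:110419747-110423012) and Ltf (9:111019271-111042767) lie on chromosome 9. Mpo lies at 11:87793581-87804413, Ctsg at 14:56099881-56102574, Ms4a3 at 19:11629496-11640851, Fcnb at 2:28076378-28084885 and Lcn2 at 2:32384633-32388252.

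Prtn3, chr10:79879417-79879716, + strand: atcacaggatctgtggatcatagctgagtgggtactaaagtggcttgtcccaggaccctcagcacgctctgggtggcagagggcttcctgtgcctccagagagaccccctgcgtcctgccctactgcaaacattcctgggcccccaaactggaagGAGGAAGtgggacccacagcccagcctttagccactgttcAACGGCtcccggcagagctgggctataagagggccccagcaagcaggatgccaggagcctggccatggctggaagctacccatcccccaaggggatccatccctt
Elane, chr10:79886062-79886361, + strand: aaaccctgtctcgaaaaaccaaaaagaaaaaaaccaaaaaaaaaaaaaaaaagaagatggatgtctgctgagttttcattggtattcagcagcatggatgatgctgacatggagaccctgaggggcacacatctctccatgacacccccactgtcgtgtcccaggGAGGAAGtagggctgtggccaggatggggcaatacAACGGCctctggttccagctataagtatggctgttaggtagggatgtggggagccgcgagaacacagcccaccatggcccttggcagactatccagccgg
Mpo, chr11:87793534-87793833, + strand: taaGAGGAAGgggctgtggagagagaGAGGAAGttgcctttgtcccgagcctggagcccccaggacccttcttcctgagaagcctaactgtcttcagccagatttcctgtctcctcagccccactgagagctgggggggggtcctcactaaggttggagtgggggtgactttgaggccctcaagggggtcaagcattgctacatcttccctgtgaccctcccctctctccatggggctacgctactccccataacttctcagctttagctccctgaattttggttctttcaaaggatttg
Ngp, chr9:110419558-110419857, + strand: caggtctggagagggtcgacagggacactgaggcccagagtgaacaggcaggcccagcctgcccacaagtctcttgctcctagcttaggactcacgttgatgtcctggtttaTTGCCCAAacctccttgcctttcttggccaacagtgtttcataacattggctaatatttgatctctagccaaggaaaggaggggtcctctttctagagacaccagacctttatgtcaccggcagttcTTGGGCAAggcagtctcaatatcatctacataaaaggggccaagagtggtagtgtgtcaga
Ltf, chr9:111019042-111019341, + strand: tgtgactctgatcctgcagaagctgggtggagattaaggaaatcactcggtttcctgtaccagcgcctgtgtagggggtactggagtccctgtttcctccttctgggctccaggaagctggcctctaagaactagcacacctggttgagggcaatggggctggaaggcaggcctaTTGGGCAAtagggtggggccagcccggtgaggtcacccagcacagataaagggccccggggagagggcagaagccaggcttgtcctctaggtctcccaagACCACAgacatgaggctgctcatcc

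The PU.1 letters were in the promoters of 4 of the 4 primary genes and 1 of the 4 secondary genes (Lcn2), and in 13.6% of 32851 RefSeq promoters of the same length. The C/EBP letters were in none of the 4 primary promoters, in 3 of the 4 secondary promoters (Ngp, Ltf, Lcn2) and in those of Ms4a3 and Fcnb, against 10.8% of all promoters. In Elane the PU.1 and MYB matches began 85 and 50 bases before the RefSeq start, and in Prtn3 95 and 55 bases before it. The MYB letters were in 5.04% of all promoters, and together with the PU.1 letters in 0.618%. The RUNX letters (16.8% of promoters) were in Ctsg and Ltf. The Camp promoter held none of these letters. The letters were chosen after these promoters had been read, so the shares of all promoters do not test the matches. A match describes the sequence only.

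The 10 genes fell into a widely and a narrowly detected set. Prtn3, which encodes the serine protease proteinase 3, gave 1999464 UMIs and was seen in 79.5% of all cells. Mpo, for the haem enzyme that makes hypochlorous acid, gave 1620733 UMIs in 69.2% of cells, and Ctsg (the serine protease cathepsin G) and Elane (neutrophil elastase) were seen in 61.9% and 52.1%. Ms4a3, a membrane protein gene that marks granulocyte-monocyte progenitors and their offspring, was seen in 38.9%. These genes were thus found in far more cells than the 9.12% called granulocyte progenitor-like.

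Fcnb, for the lectin ficolin B, was seen in 1.76% of cells (2757 UMIs). Lcn2 (lipocalin, which binds bacterial siderophores) was seen in 5.92% of cells, Camp (the antimicrobial peptide cathelicidin) in 1.97%, Ngp (neutrophilic granule protein, a member of the cystatin family) in 1.05%, and Ltf (the iron-binding protein lactoferrin) in 0.287%. The 100 cells with the most UMIs of the gene held 98.2% of all Ltf UMIs, 97.5% of Ngp, 96.9% of Camp, 61.3% of Lcn2 and 46.6% of Fcnb, but 1.81% of Mpo. Ngp, Ltf and Camp were thus a signal of a few cells, and Lcn2 was the most widely seen of the 4.

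The granulocyte progenitor-like cells lay in 3 clusters. The 2557 cells of the first had 4796 CPM of Mpo, 2764 of Elane and 0.375 of Fcnb. The 2787 cells of the second had 11305 of Elane, 11968 of Prtn3 and 27.7 of Fcnb. The third held 47 cells and was led by Camp, at 63985 CPM, with 36278 of Ngp, 14290 of Lcn2, 7446 of Ltf and 796 of Fcnb, against 127 of Mpo. Primary and secondary transcripts therefore peaked in different cells. The third cluster was named by the same rule, but the word progenitor describes it poorly. It had 10.4 CPM of Kit, 8.36 of Cebpa and 2351 of Retnlg, against 66.1, 92.7 and 0.0399 in the rest of the class. Unless stated otherwise, values of the class below include these 47 cells. Outside this class, an unnamed cluster of 4920 shallow cells (median 2718.5 UMIs) had the highest Mpo level of all clusters, at 8199 CPM.

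These 47 Camp-led cells held 93.2% of the Ltf UMIs of the series, 84.4% of Ngp, 75.8% of Camp, 55.5% of Lcn2 and 13.8% of Fcnb. S100a8 was seen in 47 of the 47 cells, the surface gene Cd177 in 42 and Cebpe in 42, while Kit, the gene of the sorted surface protein, was seen in 5. Of the mature neutrophil markers, Ly6g and Retnlg were each seen in 31 cells, Mmp9 in 22 and Cxcr2 in 19. Il1b, a gene of activated neutrophils, was seen in none. Among them, 24 cells carried 2 or more UMIs of the proliferation genes Mki67 and Top2a and fewer than 10 of Mmp8 and Retnlg together. Another 12 showed the reverse, 0 passed both limits and 11 neither. Mmp8 is listed here with the secondary and Retnlg with the tertiary cargo genes. The 24 cells had 1489 CPM of Elane, 1039 of Fcnb, 72782 of Camp and no Mmp8, and the 12 cells had 93.3 of Elane, no Fcnb, 25346 of Camp and 3798 of Mmp8. This split was made after the values were seen and describes the cells only.

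Order was read along a stage score, with the granulocyte progenitor-like cells of all mice cut into 10 bins of equal size. The score was 7 late genes (Cebpe, Gfi1, S100a8, S100a9, Itgb2l, Itgam, Lyz2) minus 6 early genes (Cd34, Kit, Sox4, Myb, Gata2, Erg). None is a member, but Lyz2 and Itgam are among the further primary and secondary cargo genes. S100a8 stood at 130497 CPM in the Camp-led cells, so that the score was not independent of the secondary genes. A gene's position is the first bin at or above 50% of its highest bin, found in each mouse. Mpo was at bin 1 in 8 of 8 mice. Ctsg followed at bin 4.25 ± 0.46 (SD, n = 8 mice), Ms4a3 at 6.13 ± 0.64, Elane at 7.38 ± 0.52 and Prtn3 at 7.75 ± 0.46. Elane and Prtn3 differed by less than their spread between mice, and the steps from Mpo to Ctsg, Ctsg to Ms4a3 and Ms4a3 to Elane exceeded it. This order depended on how the cells were drawn and ordered. With granule genes kept in the clustering Ctsg was reached in the first bin in all 8 mice, as was Mpo. Along Cebpe UMIs alone Mpo, Ctsg, Ms4a3 and Prtn3 were all reached among the cells without a Cebpe UMI after thinning to 2000 UMIs.

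Mpo was already at 4027 ± 729 CPM in bin 1, was highest at 6538 ± 825 in bin 7 and stood at 6042 ± 794 in bin 10. Elane went from 1494 ± 618 in bin 1 to 16529 ± 2594 in bin 10, and Prtn3 from 3094 ± 433 to 17792 ± 1995. Ctsg was highest in bin 9 (8013 ± 666) and Ms4a3 in bin 10 (2401 ± 360, from 401 ± 86.2). The primary genes thus did not share 1 profile, and Mpo was the flattest of them.

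Fcnb, Ngp, Ltf and Camp reached their position in bin 10 in every mouse in which they could be placed, 8 mice for Fcnb and 6 for the others, which needed 20 UMIs. Fcnb climbed before that, from 0.927 ± 1.01 CPM in bin 5 to 6.77 ± 2.44 in bin 8, 19.4 ± 6.54 in bin 9 and 157 ± 73.8 in bin 10. Ltf stayed at 0.174 ± 0.346 in bin 9, against 0.0765 ± 0.0727 in core erythroid-like cells (those left without their deepest and shallowest clusters), which should lack it, and stood at 471 ± 586 in bin 10. Camp went from 5.86 ± 2.47 to 3852 ± 3796 and Ngp from 1.06 ± 0.983 to 2140 ± 2226 between the same bins. Lcn2 differed from the other secondary genes, with 8.93 ± 3.70 in bin 1 and 36.9 ± 13.1 in bin 9, above the 0.296 ± 0.283 of core erythroid-like cells throughout, and its position varied from bin 6 to bin 10.

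**Figure D1:**
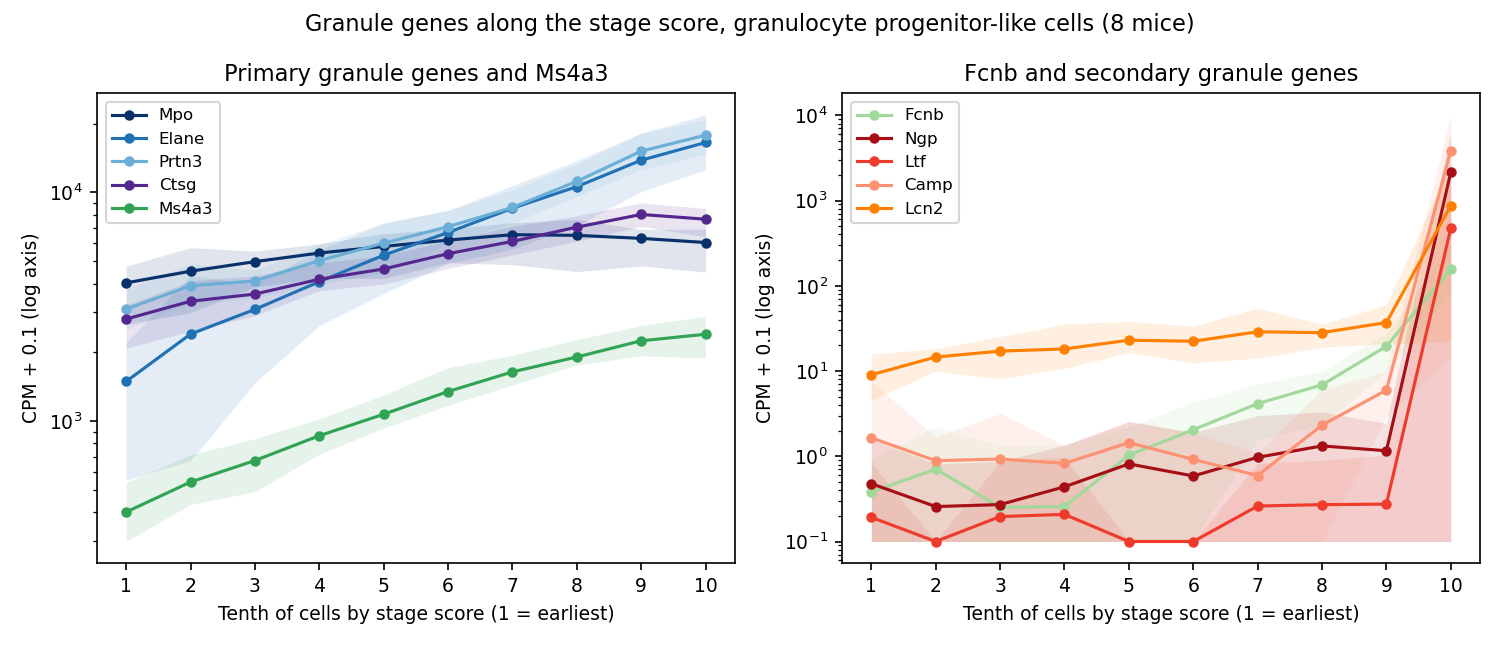
CPM, with 0.1 added on a log axis, in 10 equal bins of granulocyte progenitor-like cells ordered by stage score. Lines are means and bands the ranges of 8 mice. Mpo was high from bin 1, Elane and Prtn3 climbed to bin 10, Fcnb climbed from bin 5 on, and Ngp, Ltf and Camp were far highest in bin 10, with Camp at 5.86 in bin 9.

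The last bin rested on unequal numbers of cells, 10 in the very old male, 16 in the middle-aged female and 34 to 140 in the other mice, and held the 47 Camp-led cells. Without them its 492 cells still had 482 CPM of Camp, 150 of Ngp, 9.08 of Ltf and 60.5 of Lcn2, beside 17814 of Elane and 19652 of Prtn3. With Ngp, Ltf and Camp counted and Lcn2 left out, bin 10 had 200 cells with these and primary UMIs, 338 with primary UMIs alone and 1 with these alone. Cells with a UMI of Ngp, Ltf or Camp made up 2.78% of bin 1, 10.2% of bin 9 and 37.3% of bin 10.

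Single cells were also grouped by their UMIs of Ngp, Ltf and Camp. Among the granulocyte progenitor-like cells and the 2964 cells of a mixed granulocyte-monocyte cluster, 29 held 10 to 99 UMIs of Ngp, Ltf and Camp together, and these had 21176 CPM of Elane, 5878 of Mpo and 560 of Fcnb. The 59 cells with 100 or more had 6964 of Elane, 1661 of Mpo and 832 of Fcnb. The 7816 cells with none had 5529 of Elane and 5083 of Mpo. Elane was therefore highest in the cells with 10 to 99 of these UMIs. Of the 59 cells 19 held 10 or more Mpo UMIs, against 26 of the 29. Camp-led cells made up 41 of the 59 and 3 of the 29. The Camp-led cluster had 127 CPM of Mpo and 1057 of Elane, so the values of the 59 pool unlike cells. The parts of doublets and of depth in these groups were not tested.

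Averaged over each set and expressed as the share of a mouse's granulocyte progenitor-like cells that precede the position, the secondary genes came 40.1% ± 17.4 (SD, n = 8) of cells after the primary genes. The lag was positive in 8 of 8 mice, at 12.1% in the very old male, 12.5% in the middle-aged female and 42.9 to 51.7% in the others. Ngp, Ltf and Camp could not be placed in the 2 mice with the short lag, where only Lcn2 entered. In these 2 mice Lcn2 came before Elane and Prtn3, at 66.8% of cells against 84.2% for both in the middle-aged female and at 59.7% against 70.6 and 82.5% in the very old male, so that the lag was positive through Mpo and Ctsg. Without the Camp-led cells the lag was 28.2%, and along Cebpe alone it was 60.8%, with the secondary genes later in 6 of 8 mice. With granule genes kept in the clustering it was 35.9% ± 47.5, from -42.6 to 64.8%, again with the secondary genes later in 6 of 8 mice.

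Regulators were seen along the same bins. Cebpa, the C/EBP of the first stage, stood at 137 CPM in bin 1 and 38.0 in bin 10, and Gfi1 at 24.1 and 79.1. Cebpe and Gfi1 were both late genes of the score, so that a rise of Gfi1 along it was built in. Prss57, a further azurophil serine protease, went from 82.0 in bin 1 to 484 in bin 9. Over the 26 clusters and 10262 genes, the mean level of the primary members was most like that of Dmkn (Pearson r = 0.947), Alas1 (0.924), Prss57 (0.923), Hsd17b1 (0.915) and Hk3 (0.914). The secondary members were most like Chil3 (0.993), Orm1 (0.986), Lrg1 (0.984), 4930438A08Rik (0.983) and 9830107B12Rik (0.980). Clusters share libraries, and the second set of values rests on the Camp-led cluster.

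For the ages, the level of each gene in granulocyte progenitor-like cells is given for the male and then the female. Mpo stood at 5973 and 6146 CPM in the young mice, 4123 and 4627 in the middle-aged, 6327 and 6169 in the old and 5621 and 5511 in the very old. The middle-aged mice were lowest and did not overlap any other age. How many of all genes separate the ages in such a way was not counted, here or for the genes below. Elane stood at 6544 and 7340, 5330 and 4237, 11115 and 6558, and 5332 and 7428 at the 4 ages in that order. The old male was highest, both middle-aged mice were below the young, and old and very old mice overlapped the young.

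Prtn3 stood at 6532 and 8440 (young), 9654 and 6015 (middle-aged), 10733 and 6634 (old), and 5503 and 7923 (very old). Ctsg stood at 5248 and 5102, 5043 and 3900, 6167 and 4573, and 5435 and 5289. Ms4a3 stood at 1086 and 1229, 1597 and 999, 1508 and 996, and 1140 and 1299. For Prtn3 and Ms4a3 each older age overlapped the young mice or had a mouse on either side of them. For Ctsg both middle-aged mice were below and both very old mice above the young, while the old mice lay on either side of them.

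Fcnb stood at 16.9 and 16.4 (young), 21.3 and 3.59 (middle-aged), 45.4 and 9.07 (old), and 4.0 and 11.2 (very old). Ltf stood at 57.5 and 14.8 (young), 66.5 and 0 (middle-aged), 71.7 and 57.6 (old), and 0 and 4.51 (very old). A count of 0 allowed up to 0.263 CPM in the middle-aged female and 0.343 in the very old male. The 2 mice without an Ltf UMI in these cells were those without a Camp-led cell.

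Camp stood at 529 and 152 (young), 745 and 1.66 (middle-aged), 698 and 341 (old), and 0.915 and 64.6 (very old). Ngp stood at 272 and 86.1, 410 and 0.876, 362 and 211, and 0.114 and 29.6. Lcn2 stood at 118 and 42.7, 211 and 25.1, 141 and 105, and 21.3 and 37.2. All 4 secondary genes were low in the same mice, the middle-aged female and both very old mice. For each of them both very old mice lay below the young and the old mice, with no count beside it of all genes that separate likewise. Without the Camp-led cells this order held for Camp and Ngp but not for Ltf, at 0.155 and 0 in the young and 0 and 0.0778 in the very old mice, nor for Lcn2, which then stood at 18.2 and 16.8 in the young, 44.2 and 25.1 in the middle-aged, 24.5 and 16.8 in the old and 21.3 and 24.1 in the very old mice.

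**Figure D2:**
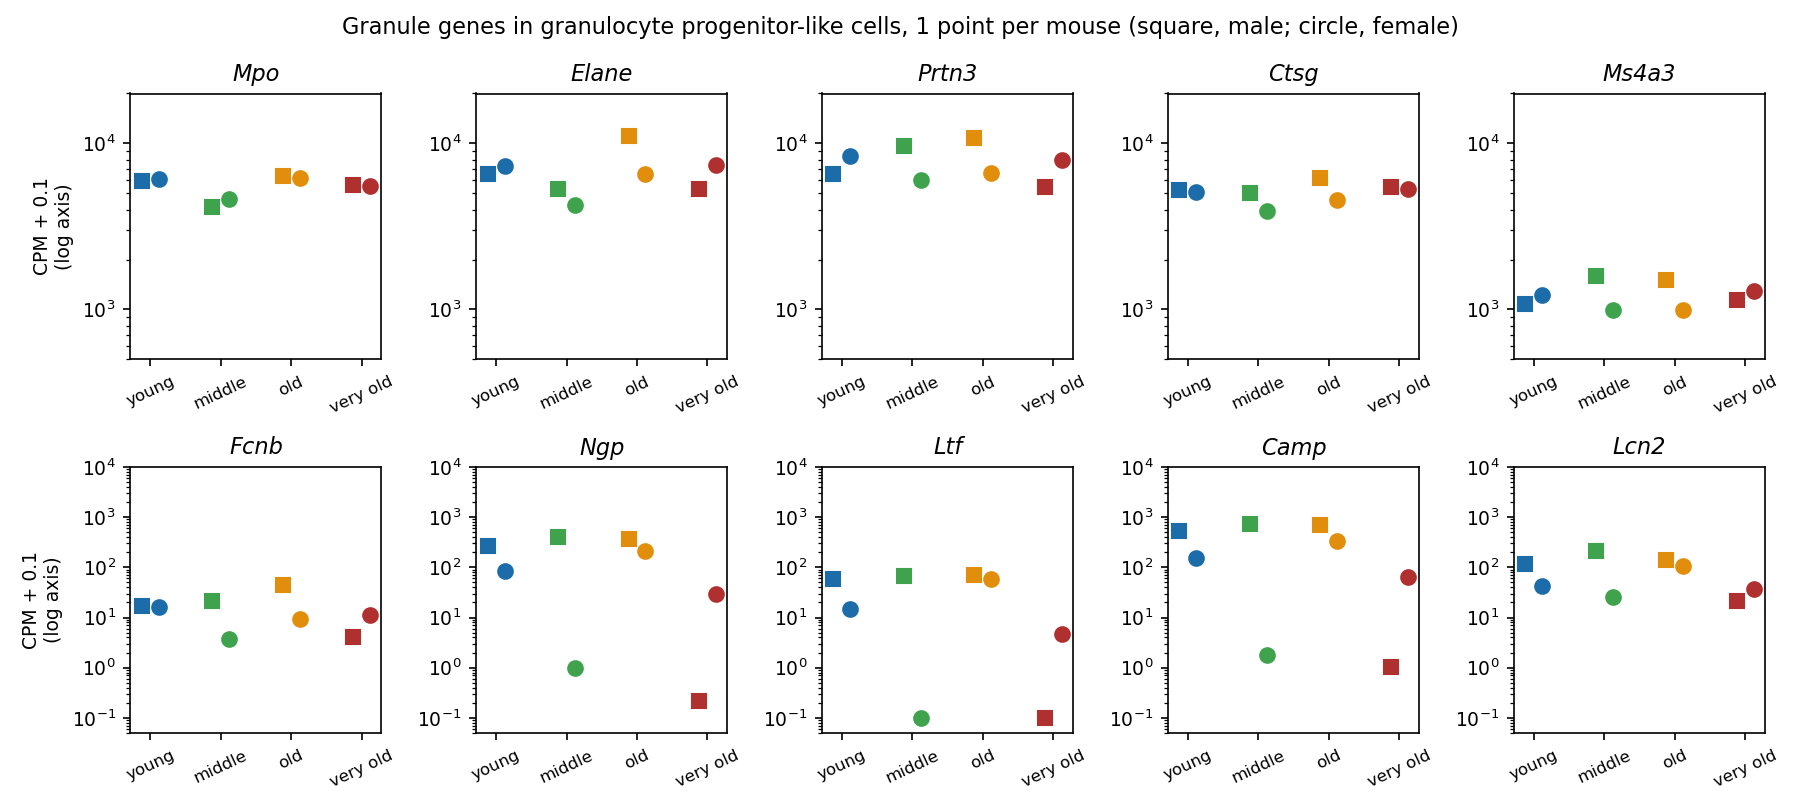
CPM (0.1 added, log axis) of each gene in granulocyte progenitor-like cells, by age, with 1 point per mouse. The primary genes spanned a narrow range at every age, and Ngp, Ltf and Camp stood at 0 to 1.66 in the middle-aged female and the very old male, the 2 mice without Camp-led cells, where Lcn2 stood at 25.1 and 21.3.

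The Camp-led cells numbered 11 in the young male and 3 in the young female, 13 and 0 in the middle-aged, 12 and 7 in the old, and 0 and 1 in the very old mice. At 0 cells a share of up to 0.0464% of the middle-aged female's cells and 0.0445% of the very old male's was allowed. The whole libraries held 775 and 240 Ltf UMIs (young), 974 and 3 (middle-aged), 1129 and 639 (old) and 2 and 59 (very old). The sort removed lineage-positive cells and kept c-Kit+ cells. Of the 47 Camp-led cells 5 carried a Kit UMI, while 43 carried a UMI of Itgam, which encodes the myeloid surface protein CD11b, and 31 one of Ly6g. The part of either gate in their number was not tested.

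Age was tested with edgeR's quasi-likelihood test on UMIs summed per mouse, with Benjamini-Hochberg adjustment over all genes. The contrasts with young mice share these 2 mice. For the mean of old and very old against young mice, 8 of 11643 genes were called (0.0687%), 598 had an unadjusted p under 0.05, and 0 of the 10 members were called. Mpo differed by a log2 fold change of -0.01 ± 0.10 (SE, adjusted p = 0.996), Elane by 0.15 ± 0.22 (0.982), Prtn3 by 0.06 ± 0.26 (0.991) and Ctsg by 0.08 ± 0.14 (0.983). The differences of the primary genes were within their errors, and the error was smallest for Mpo.

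For the secondary genes the same contrast gave -1.09 ± 0.87 for Ltf (edgeR adjusted p = 0.971), -0.91 ± 1.15 for Ngp (0.978), -0.77 ± 1.26 for Camp (0.982) and -0.12 ± 0.50 for Lcn2 (0.991). Errors of this size leave changes of several fold undetectable. DESeq2 called 0 of the 10 members as well, and edgeR without the filter on low counts called 3, all lower, beside 0.537% of 17889 genes.

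Middle-aged mice against young mice gave 0.206% of genes called and 0 of 10 members. Mpo came closest, at -0.54 ± 0.12 (edgeR adjusted p = 0.0941), and was past the threshold in DESeq2. Old against young gave 0% of genes and 0 of 10 members, with 411 genes at an unadjusted p under 0.05 and 4 genes called by DESeq2, none a member. Very old against young gave 0.112% and 0 of 10, with Ltf at -3.40 ± 1.21 (adjusted p = 0.477). Very old against old, compared only once the values were known, gave 0.0601% and 0 of 10, with Ltf at -4.62 ± 1.16 (adjusted p = 0.339) and Lcn2 at -1.88 ± 0.60 (0.458). Without the very old female 5 members were called in this last contrast, and without either middle-aged mouse 1 was. The share of all genes called was 0.325% without the very old female, 0.0501% without the middle-aged male and 0.1% without the middle-aged female.

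The UMIs of the 4 secondary genes per 1000 UMIs of the 4 primary genes were 40.2 and 10.9 in the young mice, 59.3 and 1.47 in the middle-aged, 37.1 and 29.9 in the old and 1.02 and 5.20 in the very old. Old mice lay within the young range and very old mice below it. The mean of the 4 old and very old mice was lower than that of the 2 young mice by 1.26 on the log2 scale (difference -1.26, two-sided exact permutation test, p = 0.6, smallest possible p 0.0667). The difference was -2.71 within males, 0.19 within females and 0.67 within the first library series. Without the Camp-led cells it was 0.55, with 1.04 and 1.58, 8.89 and 1.47, 3.56 and 3.32, and 1.02 and 1.05 secondary UMIs per 1000 primary UMIs at the 4 ages. Leaving out 1 mouse moved it from -2.20 (without the young female) to -0.32 (without the young male) and -0.23 (without the very old male).

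Of the further primary cargo genes 0 of 7 tested were called in old and very old against young mice, with a median log2 fold change of 0.02 beside 0.00 over all genes. Of the secondary cargo genes 0 of 14 were called (median -0.04), of the genes for protease processing and inhibitors 0 of 5 (0.15), of those for sorting and exocytosis 0 of 8 (0.09) and of the regulators 0 of 9 (-0.01). Of the tertiary cargo genes 1 of 3 was called (median -4.24).

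Prss57 differed by 0.09 ± 0.19 (edgeR adjusted p = 0.983), and Chil3, for a chitinase-like protein of secondary granules, by -0.86 ± 0.85 (0.972). The collagenase gene Mmp8 (-2.45 ± 0.53, 0.198) and the gelatinase gene Mmp9 (-4.24 ± 1.33, 0.750) had the largest differences of the genes chosen by name, and neither was called. Ctsc, whose product activates the granule proteases, differed by -0.16 ± 0.09 (0.959), Serpinb1a, a protease inhibitor, by 0.09 ± 0.12 (0.978), Srgn by 0.19 ± 0.18 (0.971) and the oxidase gene Cybb by -0.33 ± 0.42 (0.978). The regulators Gfi1 (-0.13 ± 0.09), Cebpa (-0.16 ± 0.12) and Cebpe (0.06 ± 0.12) were not called either.

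The tertiary gene called was Retnlg, which encodes a resistin-like protein of mature neutrophils, with a log2 fold change of -5.72 ± 0.64 (edgeR adjusted p = 0.0167). Its level was 38.0 and 2.29 CPM in the young mice, 40.4 and 0.0876 in the middle-aged, 3.67 and 0.833 in the old and 0.114 and 0 in the very old. All but 0 or 1 UMI per mouse came from Camp-led cells, and the old and very old mice spanned 0 to 57 UMIs in all. The old male was above the young female. The call thus rests on the Camp-led cells, without which the gene did not pass the filter on low counts. Retnlg was not called by DESeq2 (-5.04, adjusted p = 0.635), and in edgeR not without the sex term (-5.70, 0.999), without the old male (-4.58, 0.187) or without doublets (-5.41, 0.0544). The other genes called were Sdsl, Cenpv, Bmpr1a and Ly6k, which were higher, and Car1, C1qb and Hist1h2ap, which were lower.

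Granule transcripts outside the lineage were read first in erythroid-like cells, which should lack them. Of 14114 erythroid-like cells, 516 formed the deepest cluster, with a median of 43484.5 UMIs, 1159 CPM of Mpo and 96.9% of cells among the top doublet scores. It held 61.0% of the Mpo UMIs of the class. A shallow cluster of 2594 cells had a median of 724 UMIs and 873 CPM of Mpo. Both were set aside, and 11004 core erythroid-like cells remained. This was decided after their values were seen.

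Core erythroid-like cells had 62.3 and 59.7 CPM of Mpo in the young mice, 38.8 and 63.4 in the middle-aged, 51.7 and 75.4 in the old and 16.2 and 31.2 in the very old. The very old mice were lowest. With each cell thinned to 2000 UMIs, 10.4% of core erythroid-like cells (mean of 8 mice, 2.87 to 15.7%) had a Mpo UMI, and without thinning 57.5%, at a median depth of 27341.5 UMIs. The share in megakaryocyte-like cells after the same thinning was 14.8%.

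Relative to its level over all cells of the same mouse, Mpo stood at 2.74% in core erythroid-like cells (median of 8 mice), Elane at 1.85%, Prtn3 at 2.20%, Ctsg at 2.08% and Ms4a3 at 2.95%. Camp stood at 1.40% (6 mice), Ngp at 1.91% (5 mice) and Lcn2 at 1.96% (4 mice). The 8 genes were thus at a like low percentage. Free RNA of broken cells can enter the droplets of a library, and whether these values come from it was not tested. The parts of free RNA and of doublets were not separated. Prtn3 over Elane was 1.87 (1.47 to 2.89) in these cells, beside 1.05 (0.966 to 1.81) in granulocyte progenitor-like cells.

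HSC-like cells differed from core erythroid-like cells in these percentages. Prtn3 stood there at 34.1% of its level over all cells (22.3 to 63.6%), against 6.28% for Mpo, 5.78% for Ctsg, 5.77% for Ms4a3 and 3.76% for Elane. Prtn3 over Elane was 13.3 (3.16 to 51.8), above the range in core erythroid-like cells in every mouse. In MPP-like cells Mpo stood at 47.4%, Prtn3 at 45.1% and Ctsg at 41.0%, but Ms4a3 at 14.0% and Elane at 6.68%. Mpo and Ctsg, whose positions were early, and Prtn3, whose position was late, were thus the higher members in MPP-like cells.

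Basophil or mast-like cells held Ms4a3 at 117% of its level over all cells, Mpo at 97.0% and Ctsg at 81.2%, but Prtn3 at 32.3% and Elane at 25.9%. This class was shallow, at a median of 3449 UMIs, and mixed unlike clusters. They ranged from 139 to 2263 CPM of Mpo and from 43.4 to 443 of Ms4a3. Megakaryocyte-like cells held Ms4a3 at 18.5% and the primary genes at 5.4 to 8.67%. Monocyte-like cells held the primary genes at 210 to 261% and Ms4a3 at 181%, and 12.6 ± 7.46 CPM of Lcn2 (SD, n = 8), but 0.0883 ± 0.0844 of Ltf. Ltf in all of these classes was below 1 CPM on average. These classes were clustered from the same cells, so the values describe them and carry no test.

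**Figure D3:**
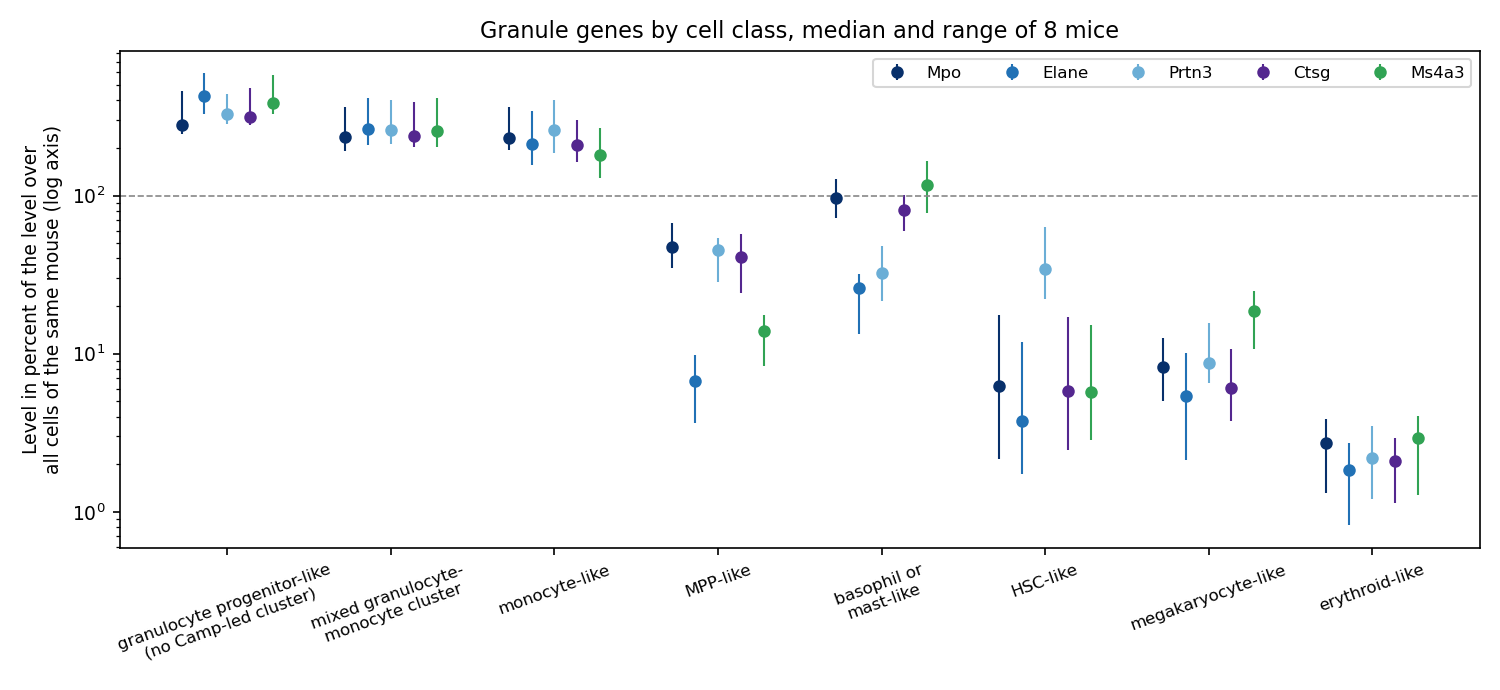
Level in each cell class in percent of the level over all cells of the same mouse (log axis), with points at the median and lines over the range of 8 mice. The erythroid-like cells are those without the deepest and the shallowest cluster. All 5 genes sat at a like low percentage there, and Prtn3 stood above the other genes in HSC-like cells.

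The 3256 HSC-like cells numbered 249 and 295 in the young mice, 428 and 269 in the middle-aged, 658 and 414 in the old and 576 and 367 in the very old. Prtn3 in them stood at 494 and 472 CPM in the young mice, 990 and 753 in the middle-aged, 1031 and 858 in the old and 803 and 709 in the very old. Each of the 6 older mice was above both young mice. With cells thinned to 2000 UMIs, 55.7 and 54.5% of young HSC-like cells had a Prtn3 UMI, against 71.1 to 83.4% in the older mice. In core erythroid-like cells of the same mice the share was 4.20 to 17.9%. Prtn3 stood there at 53.4 and 44.8 CPM (young), 65.1 and 67.9 (middle-aged), 61.5 and 65.3 (old), and 15.2 and 27.3 (very old). It was thus above the young mice in the middle-aged and old mice too.

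The other primary genes went the other way in part. Mpo in HSC-like cells stood at 377 and 214 (young), 78.9 and 121 (middle-aged), 121 and 370 (old), and 26.4 and 65.0 (very old). Elane stood at 156 and 75.7, 30.5 and 44.8, 106 and 191, and 15.5 and 29.3. The old female was as high as the young mice in Mpo and highest in Elane, while middle-aged and very old mice lay below the young.

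Ctsg stood at 211 and 115 (young), 67.7 and 88.4 (middle-aged), 103 and 276 (old), and 27.9 and 40.0 (very old). Ms4a3 stood at 40.6 and 25.2, 20.5 and 17.0, 23.1 and 41.2, and 5.66 and 9.51. For both the old female was the highest mouse and the very old mice the lowest. The ratio of Mpo in HSC-like to core erythroid-like cells was 6.05 and 3.59 in the young mice, 2.03 and 1.90 in the middle-aged, 2.34 and 4.91 in the old and 1.63 and 2.08 in the very old, so that it too was lower in 5 of the 6 older mice than in both young mice.

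**Figure D4:**
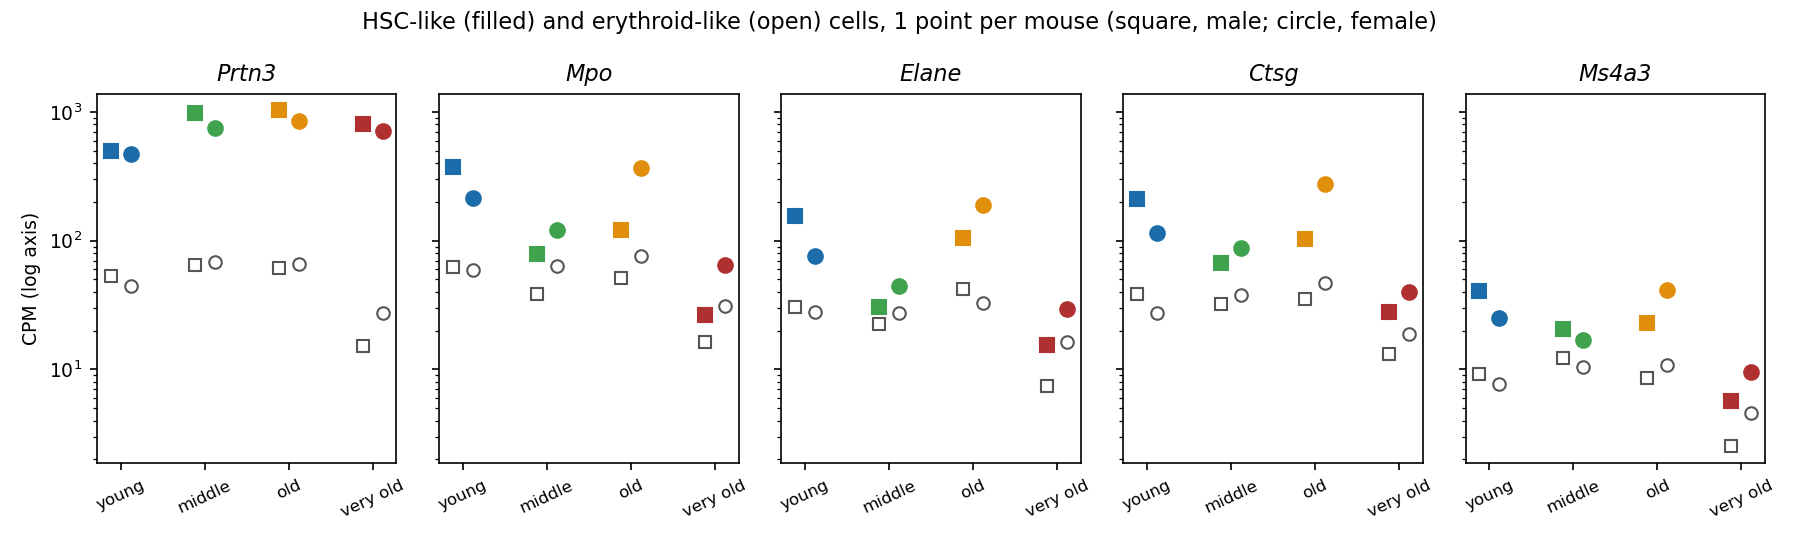
CPM (log axis) in HSC-like cells (filled) and in core erythroid-like cells (open), with 1 point per mouse. Prtn3 was above the young mice in all 6 older mice, while the open points, for cells that should lack the transcript, were lowest in the very old mice.

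In old and very old against young mice, 16.5% of 11062 genes were called in HSC-like cells, and 5 of the 6 members that passed the filter on low counts. Fcnb, Ngp, Ltf and Lcn2 did not pass it, and Camp (-0.80 ± 0.69) was not called. Prtn3 rose by a log2 fold change of 0.93 ± 0.09 (edgeR adjusted p = 2.23e-07), higher in 4 of 4 mice. It was called under each of 19 alternatives, at 0.46 to 1.13 and a highest adjusted p of 0.0301, reached without integration of the libraries. Mpo fell by 1.56 ± 0.28 (0.000521), Elane by 0.95 ± 0.25 (0.0109), Ctsg by 0.98 ± 0.26 (0.0118) and Ms4a3 by 1.0 ± 0.25 (0.00878). The 4 falls and the rise of Prtn3 thus stood beside a wide change of the class.

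The falls depended on single mice and on how the class was drawn. Without the young male none of the 4 was called, with Mpo at -0.45 (edgeR adjusted p = 0.170), Elane at 0.064, Ctsg at -0.022 and Ms4a3 at -0.39. Without the old male Mpo alone kept its call, with Elane at -0.70, Ctsg at -0.60 and Ms4a3 at -0.74, and without the very old male Elane (-0.73) and Ms4a3 (-0.80) lost theirs. In DESeq2 Prtn3 was the only member called, and likewise with finer clusters, with granule genes kept in the clustering, or without integration. Shares of all genes called under the alternatives of this paragraph are not given. The calls therefore show only how far they depended on the processing. In HSC-like cells without a UMI of Flt3 or Cd48, genes of multipotent progenitors, Prtn3 (1.13) and Mpo (-0.79) were called. Such cells were 96 and 174 of the 249 and 295 HSC-like cells in the young mice. They were 341 and 209 of 428 and 269 in the middle-aged mice. In the old mice they were 590 and 344 of 658 and 414, and in the very old 543 and 325 of 576 and 367. The make-up of the class thus differed with age, and its part in the falls was not tested.

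Each older age against the young mice gave a higher Prtn3 level in HSC-like cells, by 0.92 ± 0.10 in middle-aged mice (edgeR adjusted p = 4.27e-06; 4.42% of genes called), 1.05 ± 0.10 in old mice (2.58e-07; 13.1%) and 0.81 ± 0.10 in very old mice (7.35e-06; 13.3%). Mpo and Elane fell in middle-aged mice by 1.6 ± 0.33 and 1.58 ± 0.30. In old mice, which share the library series of the young mice, Mpo (-0.40 ± 0.31), Elane (0.39 ± 0.26), Ctsg (0.19 ± 0.28) and Ms4a3 (0.01 ± 0.26) were not called. In very old mice all 4 fell, Mpo by 2.72 ± 0.36. The young mice are shared by these contrasts.

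Between the oldest ages, 4 members differed in HSC-like cells, where 0.38% of genes were called. Mpo was lower in very old than in old mice by a log2 fold change of -2.32 ± 0.35 (edgeR adjusted p = 0.00135), Elane by -2.68 ± 0.31 (0.000175), Ctsg by -2.34 ± 0.32 (0.000452) and Ms4a3 by -2.02 ± 0.31 (0.00183), whereas Prtn3 was not called (-0.23 ± 0.09, 0.515). Without the old female Mpo (-1.52) and Ms4a3 (-1.51) were not called, and without the very old male Ms4a3 (-1.64) was not. With granule genes kept in the clustering or without integration no member was called. All erythroid-like cells, the deepest and the shallowest cluster included, had 20.5% of genes called in this contrast and lower Mpo (-0.62 ± 0.12), Prtn3 (-0.77 ± 0.14) and Ctsg (-0.47 ± 0.11) in very old mice too. In the core erythroid-like cells, tested once the values were known, 22.9% of 12217 genes and 7 of 8 members were called, all 7 lower, with Mpo at -1.32 ± 0.18 (edgeR adjusted p = 0.00172), Elane at -1.59 ± 0.27, Prtn3 at -1.47 ± 0.20, Ctsg at -1.23 ± 0.19 and Ms4a3 at -1.32 ± 0.25. The difference between the falls in HSC-like and in these cells was not tested.

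In old and very old against young mice, all erythroid-like cells had 0 of 8 members called (0.016% of 12517 genes), with Mpo at -0.46 ± 0.10 (edgeR adjusted p = 0.411), and DESeq2 called 1. The core erythroid-like cells had 0 of 8 called as well, with Mpo at -0.69 ± 0.15 (0.451). All cells together had 0 of 10 members called (1.21% of 15361 genes), with Prtn3 at 0.11 ± 0.30. In very old against old mice 1 of the 10, Mpo (-0.67 ± 0.17), was called over all cells, beside 12.4% of genes. In old and very old against young mice Prtn3 was thus called in HSC-like cells and in neither of these sets, and the difference between the sets was not tested. Cells with a Prtn3 UMI and no UMI of Mpo, Elane or Ctsg made up 26.3 and 29.5% of young and 44.8 to 67.3% of older HSC-like cells after thinning, and 3.17 to 12.4% of core erythroid-like cells.

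Among the further granule genes in HSC-like cells, Prss57 (-1.33 ± 0.28), Hp (-1.58 ± 0.49) and Cfp (-1.45 ± 0.31) fell and Cd63, for a membrane protein of azurophil granules, rose (0.74 ± 0.09). Of the primary cargo genes 1 of 7 tested rose and 2 fell, and of the secondary cargo genes 4 of 7 fell, beside the 16.5% of all genes called in this contrast. The protease inhibitors Serpinb1a (-1.16 ± 0.18) and Cst7 (-1.13 ± 0.33) fell, and Ctsc rose (0.53 ± 0.12). Srgn, for the proteoglycan that packs granule proteases, rose by 0.31 ± 0.07. Of 9 regulators 2 rose (Cebpb, 0.96 ± 0.15, and Cebpd, 0.75 ± 0.22) and 3 fell (Cebpa, -1.79 ± 0.35, Spi1, -0.77 ± 0.13, and Myb, -0.43 ± 0.10). No tertiary cargo gene passed the filter. The median over all genes was -0.02, and without scaling beyond the total it was -0.15.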

How the data were processed

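Lineage-negative, c-Kit+ bone marrow cells of 8 mice, 2 at each of 4 ages, were profiled with 10x 3′ chemistry. The deposited values are raw UMI counts per gene and cell, made by the authors with Cell Ranger (6.0.0 in the file headers) on mm10, with no normalization. The labels name 2 versions of the chemistry. Cells with 200 or more genes were clustered on 30 principal components after Harmony (theta 1; leidenalg 0.10.2, resolution 0.8), without sex genes or granule cargo genes, and named from fixed markers. Doublets were kept. In 4 libraries Scrublet called too few, so an alternative left out the top-scoring 0.8% per 1000 cells.

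UMI counts were summed per mouse and class and tested with edgeR 4.0.16 (quasi-likelihood test, TMM, filterByExpr, age group and sex, Benjamini-Hochberg over all genes tested, threshold 0.05), with DESeq2 1.42.0 as an alternative, after a test on simulated data. The labels give 1 mouse per library, so p-values measure the spread between mice. Zero counts are given a limit of 3 UMIs, which covers counting error only. Named genes were the 10 members, the genes of 6 fixed lists past the threshold (at most 3 in each direction), Cebpa, Cebpe, Gfi1, Prss57, Ctsc, Srgn, Serpinb1a, Chil3, Cybb, Mmp8 and Mmp9, and the 5 genes most like each set. The genes named in HSC-like cells were chosen after their values were seen. The members and lists were chosen with earlier results of these data known. Promoters are RefSeq's on GRCm38.p6, and gene coordinates GENCODE vM21's on GRCm38.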

Additional observations from a re-analysis of the deposited data

Results flagged for a closer look

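Of 11 results set apart, 1 was a sample far from the others. Ctsg in MPP-like cells of the very old female stood at 718 CPM (UMIs per 1000000), whereas the other old and very old mice lay between 654 and 663; chance sets apart about 1 in 20 such groups.

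The other results were differences between the old and the very old mice, tested directly with edgeR and adjusted over all genes. In all cells the log2 fold change of Mpo was -0.67 ± 0.17 (adjusted p = 0.0476; 12.4% of genes were called). In HSC-like cells Mpo differed by -2.32, Elane by -2.68, Ctsg by -2.34 and Ms4a3 by -2.02. In all erythroid-like cells, which should lack these transcripts, Mpo differed by -0.62, Prtn3 by -0.77, Ctsg by -0.47, Ngp by -4.35 (adjusted p = 0.0101) and Camp by -4.10 (0.0182). All were lower in the very old mice, whose libraries belong to another series, so that age and series cannot be told apart.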

How the results depend on the processing

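Of the values that answer a comparison, 186 kept their size under the alternatives, 43 moved and 1 changed sign; of the 10 members' fold changes 634 kept their side of the threshold, 49 lost it, 5 gained it and 1 that had been called changed sign. The sign differed in 56 of these in all. In granulocyte progenitor-like cells 8 genes were called in old and very old against young mice, 96 without the filter on low counts, 0 without the sex term or without doublets, 2 with the mixed cluster, 1 with granule genes kept in the clustering, 4 without Harmony or with cells of 1000 genes, and 0 to 21 with 1 mouse left out. The members called there were 0, and without the filter on low counts 3 in old and very old, 3 in middle-aged, 5 in old and 5 in very old against young, and 6 in very old against old mice, where leaving out 1 mouse gave 0 to 5. In middle-aged against young mice DESeq2 and no scaling beyond the total each called 1. In HSC-like cells the 5 members called in old and very old against young mice became 1 with DESeq2, resolution 1.6, granule genes kept or no Harmony, 3 without the sex term or with cells of 1000 genes, 2 without Flt3 or Cd48 UMIs, and 1 to 5 with 1 mouse left out, with Elane from -1.74 without the young female to 0.064 without the young male. The 4 called in very old against old mice became 2 with DESeq2, 1 at resolution 1.6, 0 with granule genes kept or no Harmony, and 2 to 4 with 1 mouse left out. In erythroid-like cells DESeq2 and no filter each called 1 where 0 had been called. The shares of all genes called are not given beside these counts of members. The counts therefore show only how far the calls depended on the processing. The ratio of secondary to primary UMIs became 0.55 without the Camp-led cells and ranged from -2.20 to -0.23 with 1 mouse left out. The lag along Cebpe was 60.8%. The share of core erythroid-like cells with a Mpo UMI was 19.1% at 4500 UMIs and 57.5% without thinning, and in lymphoid-like cells 19.7%. The causes were not tested. No paired analysis was possible because no label ties mice of different ages to each other by animal or number; sex, which 1 mouse at each age shares, was a term of the fit. The libraries with 2 and 3 Ltf UMIs held 127972217 and 102806700 UMIs and no Camp-led cell. The library with the fewest UMIs, 83062003, held 639 Ltf UMIs. The part of library depth in these counts was not tested.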
